A study of Mus musculus with 6 samples.

Results

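The T-box genes encode transcription factors that share a DNA-binding domain named after Brachyury, the T gene. The 8 members described here are Tbx1, Tbx2, Tbx3, Tbx4, Tbx5, Tbx15, Tbx18 and Tbx20, chosen by symbol, and all 8 were among the 24197 genes of the count table. They were followed in stromal-vascular cells, the adipose fraction that holds progenitors, fibroblasts, vascular and immune cells, from the inguinal fat of C57BL/6 mice. In 3 libraries the cells had received a retrovirus carrying Prdm16, and in the other 3 a control retrovirus labelled puro. Prdm16 is a zinc-finger regulator of brown and beige fat identity. The labels give neither the age nor the sex of the mice, and they do not say whether replicates came from separate animals or cultures. The p-values therefore describe the spread among 6 libraries that may be technical repeats.

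T-box factors bind short sites related to the letters GGTGTGA, as activators or repressors, and are known from work in mouse embryos as dosage-sensitive regulators of limb, heart and body wall patterning. Tbx1, Tbx15, Tbx18 and Tbx20 form the Tbx1 subfamily, and Tbx2, Tbx3, Tbx4 and Tbx5 the Tbx2 subfamily. In fat, Tbx15 is known as a gene expressed differently between depots and needed for brown and beige adipocyte differentiation in mouse cells, and Tbx1 as a marker of beige cells. Tbx18 is known from mural cells, epicardium and ureter mesenchyme, and Tbx20 from the heart. Tbx2 and Tbx3 are repressors known for holding back cell cycle inhibitors, and Tbx4 and Tbx5 mark hindlimb and forelimb mesenchyme.

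The promoters of the 2 members with the largest falls are shown, and they differ in composition. Each line is the 250 bases before the gene's start, 5′ to 3′ on the gene's own strand, from the RefSeq promoter table of build GRCm38.p6. Capitals mark matches on either strand to GGGCGG, the GC box, or to CCAAT, the CCAAT box.
Tbx20, chr9:24774304-24774553, minus strand: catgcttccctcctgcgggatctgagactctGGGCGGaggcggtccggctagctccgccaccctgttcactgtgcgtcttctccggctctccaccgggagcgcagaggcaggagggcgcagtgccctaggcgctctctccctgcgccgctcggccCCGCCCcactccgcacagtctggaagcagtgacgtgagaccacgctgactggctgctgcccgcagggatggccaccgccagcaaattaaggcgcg
Tbx18, chr9:87731261-87731510, minus strand: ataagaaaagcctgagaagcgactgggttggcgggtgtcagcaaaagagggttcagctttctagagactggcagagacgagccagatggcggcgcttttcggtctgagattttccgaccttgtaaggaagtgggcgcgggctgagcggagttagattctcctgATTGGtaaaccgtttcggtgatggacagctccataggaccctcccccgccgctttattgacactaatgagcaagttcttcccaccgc
The Tbx20 window was 68.8% G and C with 22 CpG dinucleotides and 2 GC boxes, and the Tbx18 window 54% with 15 CpG and 1 CCAAT box read on the opposite strand. Over the 32851 promoter windows of the table, the medians were 52.4% G and C and 6 CpG. A GC box stood in 32.7% of all windows and a CCAAT box in 33.8%. Neither GGTGTGA, which 3.33% of all windows held on either strand, nor its shorter part GTGTGA (12.3%) was in the Tbx20 or the Tbx18 window. TATAAA, held by 12.4% of windows, was not in them either. These matches are descriptions of letters and say nothing of binding. The table had entries for 4 of the 8 members, which besides these are Tbx1 and Tbx4.

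The libraries held 28169059 to 35798201 counts. Levels are given as CPM, the count scaled to a library of 1e+06 counts, after TMM scaling, a correction of library size for composition. A count of 0 allows up to 3 counts, which stood for 0.0852 to 0.104 CPM in a library, and such limits cover counting error only. As a check of the labels, Prdm16 had 98437, 72525 and 89054 counts in the Prdm16 libraries, against 14, 22 and 25 in the puro libraries.

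Marker lists of the cells that the fraction can hold moved with the groups. Of 6 stromal progenitor markers 5 were tested: Ly6a rose, with a log2 fold change of 1.39 ± 0.04, and Cd34 (-4.10 ± 0.13), Dlk1 (-1.93 ± 0.19) and Pdgfrb (-1.50 ± 0.03) fell. Pdgfra averaged 188 ± 6.63 CPM in Prdm16 and 199 ± 9.57 CPM in puro libraries (SD, n = 3 each) and was not called (edgeR adjusted p = 0.116), but it was called lower without puro replicate 3 (edgeR adjusted p = 0.0335) and with the median log2 fold change of each chromosome removed (edgeR adjusted p = 0.000248). The progenitor list summed to 1348 to 1403 CPM in Prdm16 and 1134 to 1170 CPM in puro libraries. Most of the sum in Prdm16 libraries was Ly6a, at 988 ± 25.1 CPM, against 376 ± 9.20 CPM in puro libraries (SD, n = 3). Pdgfrb went the other way, at 195 ± 3.09 CPM in Prdm16 and 554 ± 11.6 CPM in puro libraries. The higher sum therefore reflects Ly6a and not the list as a whole.

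Of 6 endothelial markers 2 were tested: Tek rose to 986 counts over the Prdm16 group, against 119 over the puro group, and Kdr was not called (edgeR adjusted p = 0.733). Cdh5 had no count, Pecam1 had 10 counts over the Prdm16 group and 16 over the puro group, and the list summed to 9.06 to 11.9 CPM in Prdm16 and 1.67 to 1.83 CPM in puro libraries. Of the macrophage markers 3 were tested. Lyz2 fell to 3 counts over the Prdm16 group, against 146 over the puro group, and Cd14 fell by 1.31 on the log2 scale. Cd68 lay the other way, at 0.26 ± 0.11, and was not called (edgeR adjusted p = 0.0521). It was called higher with RLE scaling, with no filter and without puro replicate 2 (edgeR adjusted p 0.0472, 0.0433 and 0.0292). The same held with chromosome medians removed (edgeR adjusted p = 0.0255). The sum over the 5 macrophage markers of the count table was 8.27 to 8.63 CPM in Prdm16 and 14.2 to 15.4 CPM in puro libraries. No lymphocyte marker was tested, and Cd3e and Cd8a had no count. Of 6 skeletal muscle markers 1 was tested, Des, which fell. Myf5, Myod1, Myog and Ckm had no count in any library, and Pax7 had 6 counts over the Prdm16 group and none over the puro group. The sum, almost wholly Des, was 3.83 to 4.82 CPM in Prdm16 and 7.45 to 9.06 CPM in puro libraries. The part of any of these cells in the T-box results was not tested. In bulk samples, fewer cells of a type and less RNA per cell cannot be told apart.

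Of the 8 T-box genes 5 were expressed well enough to be tested: Tbx15, Tbx18, Tbx20 and Tbx3 fell and Tbx2 rose in the Prdm16 libraries. The falls were 4.13-fold for Tbx20, 2.70-fold for Tbx18, 1.97-fold for Tbx15 and 1.56-fold for Tbx3, and the rise of Tbx2 was 2.37-fold. Tbx1, Tbx4 and Tbx5 were at or near 0 counts in both groups and could not be tested. Calls are those of edgeR's quasi-likelihood test across 13805 genes, at a Benjamini-Hochberg adjusted p of 0.05. At that threshold 75.6% of all tested genes were called, 38.0% as lower and 37.5% as higher, so that a call alone sets a T-box gene apart from few others. A call as lower with a log2 fold change of at most -1 was given to 12.1% of tested genes, and among the members to Tbx20 and Tbx18. The groups did not overlap for any of the 5 tested members, and this was so for 77.6% of all tested genes. The 5 tested members had levels above the filter in both groups, since even the lowest library of Tbx2 stood at 0.363 unscaled CPM against a filter value of 0.299.

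**Figure D1:**
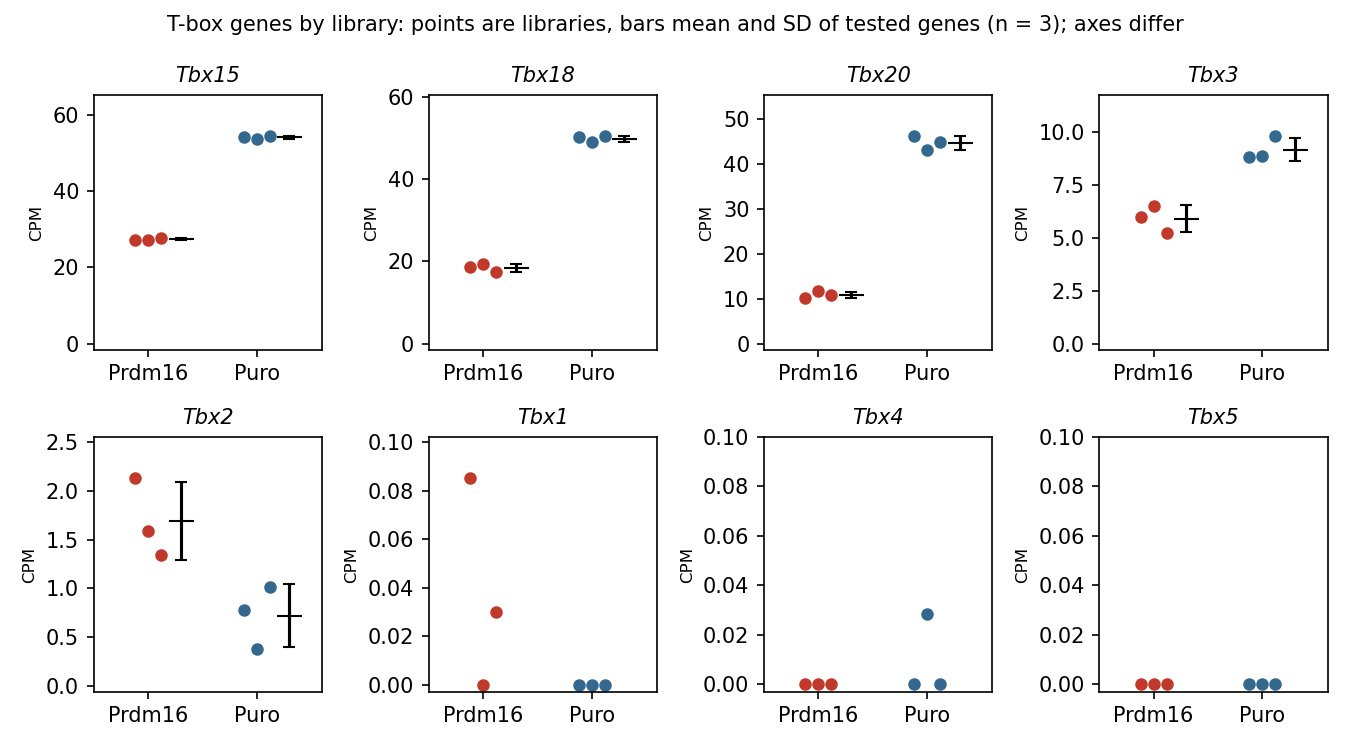
Each panel plots one T-box gene, with TMM-scaled CPM on its own linear axis, the Prdm16 libraries in red and the puro libraries in blue. Points are libraries and bars are the mean and SD of the tested genes (n = 3). For Tbx15, Tbx18, Tbx20 and Tbx3 the Prdm16 points lie below all puro points, for Tbx2 above them, and Tbx1, Tbx4 and Tbx5 stay below 0.1 CPM.

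Tbx20, a cardiac regulator with both activating and repressing domains, had 10.1, 11.7 and 10.8 CPM in the Prdm16 libraries and 46.2, 43.2 and 44.8 CPM in the puro libraries. The groups were far apart, since the highest Prdm16 library had 11.7 CPM and the lowest puro library 43.2 CPM. The mean was 10.9 ± 0.773 CPM in Prdm16 and 44.7 ± 1.51 CPM in puro libraries (SD, n = 3), and the log2 fold change was -2.05 ± 0.06 (SE; edgeR adjusted p = 1.41e-10). A fold change as low or lower was found for 5.59% of the tested genes. Over the groups the gene was read from 1054 counts in Prdm16 and 4443 in puro libraries.

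Tbx18, a repressor known from mural and mesothelial lineages of mouse embryos, had 18.7, 19.3 and 17.4 CPM in the Prdm16 libraries, against 50.1, 48.9 and 50.3 CPM in the puro libraries. All 3 Prdm16 libraries lay below every puro library. The log2 fold change was -1.43 ± 0.05 (SE; edgeR adjusted p = 5.34e-10), a value reached or undercut by 8.5% of the tested genes.

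Marker lists of the cells that Tbx18 is known from did not move one way. Of 6 mural markers, 4 were tested: Mcam and Notch3 rose, Cspg4 and Rgs5 fell, and Kcnj8 had no count in any library. Rgs5 was read from 0, 0 and 5 counts in the Prdm16 libraries and 12, 18 and 13 in the puro libraries. The summed level of the mural list ranged from 264 to 285 CPM in Prdm16 and from 156 to 179 CPM in puro libraries. Most of that sum was Notch3, at 201 ± 11.9 CPM in Prdm16 and 125 ± 8.28 CPM in puro libraries (SD, n = 3). Mcam was at 70.4 ± 1.75 CPM in Prdm16 and 7.85 ± 0.211 CPM in puro libraries. Cspg4, which fell, was at 2.01 ± 0.282 CPM in Prdm16 and 31.2 ± 4.35 CPM in puro libraries. Of 6 mesothelial markers, 3 were tested: Msln rose to 91.1 ± 3.10 CPM in Prdm16 libraries, against 6.30 ± 0.266 CPM in puro libraries (SD, n = 3), and Krt19 rose as well. The mesothelial regulator Wt1 fell to 1 count over the Prdm16 group, against 75 over the puro group, and Upk1b had no count. The sum of the mesothelial list was 96.4 to 102 CPM in Prdm16 and 7.18 to 7.58 CPM in puro libraries. The part of these cells in the fall of Tbx18 was not tested.

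Tbx15, the closest relative of Tbx18 and the member best known in fat, had 27.3, 27.3 and 27.7 CPM in the Prdm16 libraries and 54.3, 53.6 and 54.4 CPM in the puro libraries. Relative to the mean, its replicates were the tightest of the tested members, with an SD of 0.215 CPM in Prdm16 and 0.389 CPM in puro libraries. Both are smaller than counting error alone would give at its 790 to 962 counts in Prdm16 and 1683 to 1872 counts in puro libraries. With 3 libraries a group this tightness is not read as a trait of the gene. The log2 fold change was -0.98 ± 0.04 (SE; edgeR adjusted p = 1.71e-09), and 12.4% of tested genes had a value as low or lower. Genes of its chromosome, 3, had a median log2 fold change of -0.20, and Tbx15 had -0.78 after subtraction of the chromosome medians.

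Tbx1, the beige marker of the same subfamily, had 3, 0 and 1 counts in the Prdm16 libraries and none in the puro libraries. These 4 counts put its level over the Prdm16 group at 0.041 CPM. The floor of 3 counts would give 0.0302 CPM for all puro libraries together. The 4 counts carry counting error of their own, so no smallest fold is given. With no filter on low counts edgeR gave it an adjusted p of 0.108, so a difference was not detectable at this depth.

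Tbx3, a repressor of the other subfamily with known parts in limb and mammary gland, had 5.96, 6.49 and 5.21 CPM in the Prdm16 libraries and 8.80, 8.86 and 9.77 CPM in the puro libraries. The groups did not overlap. The log2 fold change was -0.64 ± 0.10 (SE; edgeR adjusted p = 0.000115). The median of its chromosome, 5, lay the other way at 0.18, and with chromosome medians removed Tbx3 had -0.82.

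Tbx2, its closest relative, was the member that rose, from few reads: 75, 46 and 45 counts in the Prdm16 libraries, against 24, 13 and 34 in the puro libraries. In CPM these were 2.13, 1.59 and 1.35 in the Prdm16 and 0.774, 0.373 and 1.01 in the puro libraries. The lowest Prdm16 library was above the highest puro library, but the spread was wide beside the other members. The log2 fold change was 1.24 ± 0.30 (SE; edgeR adjusted p = 0.00293), and it ranged from 0.92 without puro replicate 2 to 1.59 without puro replicate 3.

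Tbx4 and Tbx5, the limb members, were not expressed to any level this depth could show. Tbx5 had no count in any of the 6 libraries, and Tbx4 had 1 count, in puro replicate 2. Summed by group, a floor of 3 counts stood for 0.0307 CPM in Prdm16 and 0.0302 CPM in puro libraries. Pitx1, the hindlimb regulator upstream of Tbx4 in mouse embryos, also had no count in either group.

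**Figure D2:**
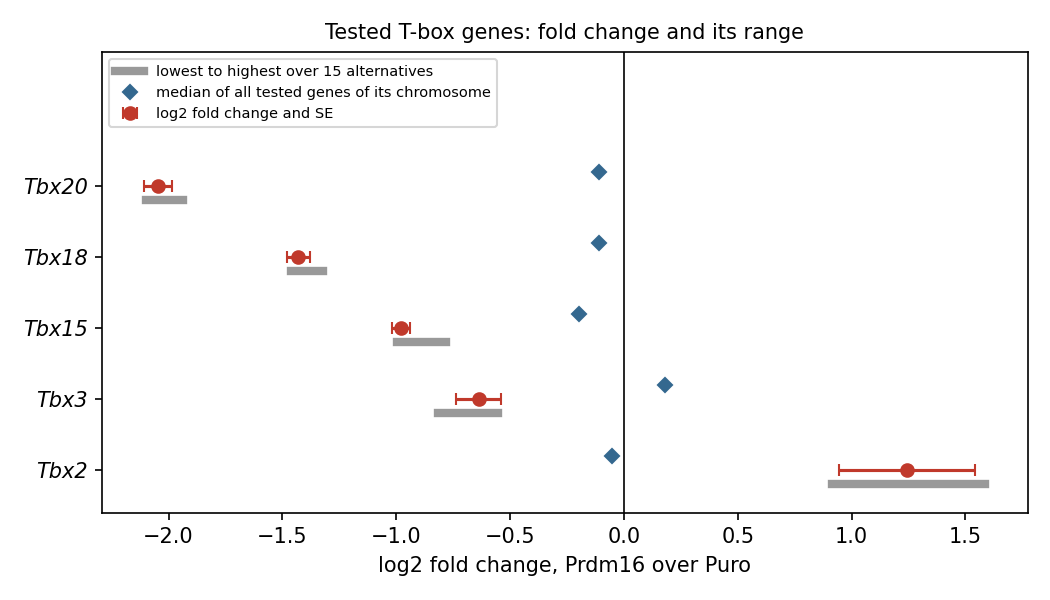
The horizontal axis is the log2 fold change of Prdm16 over puro libraries for the 5 tested T-box genes. Red points with bars are the value and its SE, grey bars the lowest and highest value over 15 alternative settings, and blue diamonds the median of all tested genes of the gene's chromosome. No grey bar crosses 0, and that of Tbx2, 0.92 to 1.59, is the widest.

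The scale of these changes was set against the whole transcriptome by plotting every tested gene. Tbx20, Tbx18 and Tbx15 were in the middle range of abundance, inside the cloud of called genes. Tbx2 was among the low genes, where scatter was larger.

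**Figure D3:**
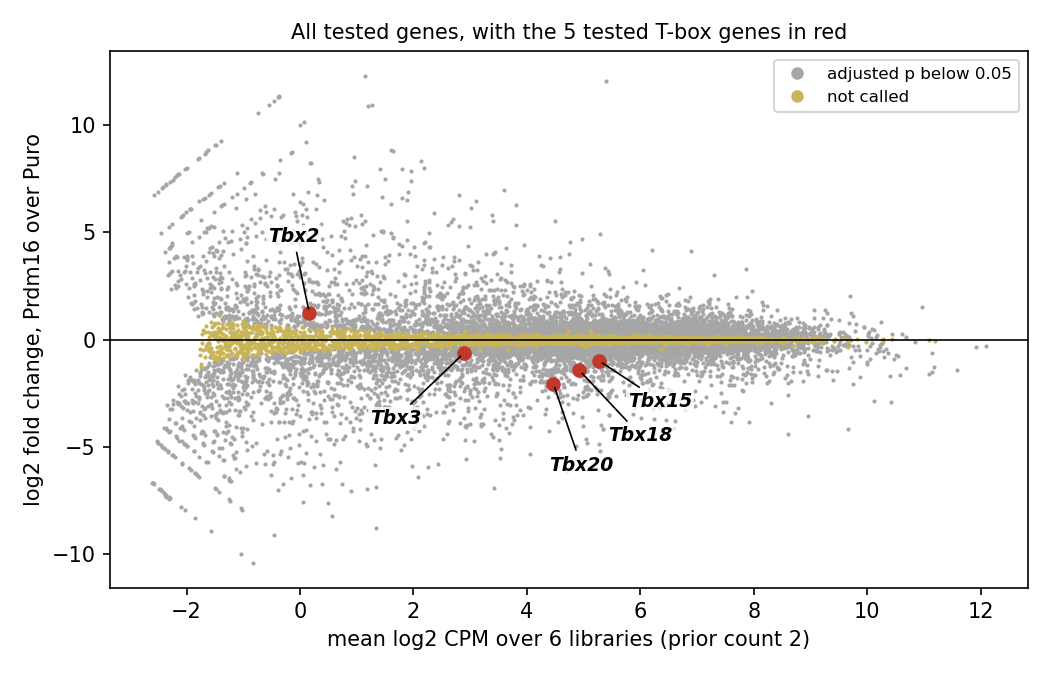
Each point is one of the 13805 tested genes, with its mean log2 CPM over the 6 libraries on the horizontal axis and its log2 fold change of Prdm16 over puro libraries on the vertical axis. Grey points are genes with an adjusted p below 0.05 and yellow points the others. The 5 tested T-box genes, in red, lie between -2.05 and 1.24.

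Levels of different genes were compared per kilobase of merged exons, with lengths from GENCODE M21, an annotation of another build than that of the counts. The summed T-box level was 13.5 ± 0.326 CPM per kilobase in Prdm16 and 30.3 ± 0.492 CPM per kilobase in puro libraries (SD, n = 3). In Prdm16 libraries the order was Tbx15 at 7.32 ± 0.0575, Tbx18 at 3.92 ± 0.204, Tbx20 at 0.905 ± 0.0644, Tbx3 at 0.889 ± 0.0972 and Tbx2 at 0.466 ± 0.11 CPM per kilobase. Tbx20 and Tbx3 did not differ there beyond their spread. In puro libraries the order was the same, with Tbx15 at 14.4 ± 0.104, Tbx18 at 10.6 ± 0.155, Tbx20 at 3.73 ± 0.126, Tbx3 at 1.38 ± 0.0822 and Tbx2 at 0.199 ± 0.0892 CPM per kilobase.

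As shares of the summed level, Tbx15 made up 54.2% ± 1.75 in Prdm16 and 47.7% ± 0.436 in puro libraries (SD, n = 3). The share of Tbx18 was 29% ± 0.824 in Prdm16 and 34.8% ± 0.0563 in puro libraries, and that of Tbx20 was 6.7% ± 0.447 in Prdm16 and 12.3% ± 0.282 in puro libraries. Tbx3 took 6.57% ± 0.569 in Prdm16 and 4.56% ± 0.232 in puro libraries, although its own level fell. Tbx2 took 3.44% ± 0.774 in Prdm16 and 0.652% ± 0.286 in puro libraries. The makeup thus held more Tbx15, Tbx3 and Tbx2 and less Tbx18 and Tbx20 in Prdm16 libraries, and the libraries of the groups did not overlap for any of these 5 shares. Shares add to a fixed total, so they are not independent of each other.

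**Figure D4:**
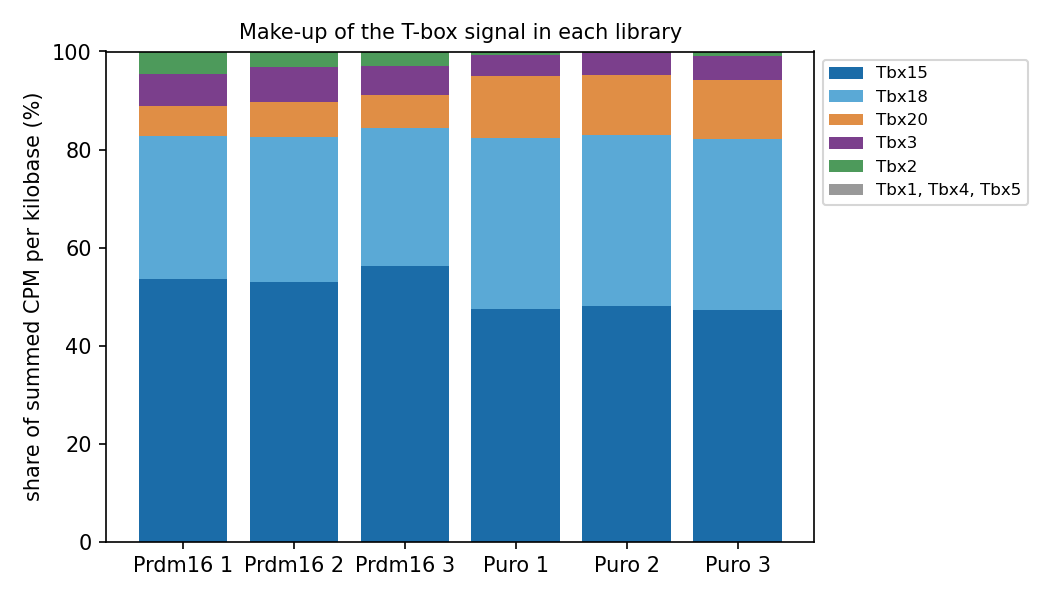
Bars are the 6 libraries and the vertical axis is the share of each T-box gene in the summed CPM per kilobase of the 8 genes. The Tbx20 part is 6.2% to 7.07% in the Prdm16 libraries and 12.1% to 12.6% in the puro libraries, and Tbx1, Tbx4 and Tbx5 are too small to see.

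The difference between groups in the ratio of close relatives does not depend on library scaling or gene length, though the ratio itself, taken here from counts, holds the lengths of both genes. The log2 ratio of Tbx15 to Tbx18 counts was 0.54, 0.50 and 0.67 in the Prdm16 libraries, against 0.12, 0.13 and 0.11 in the puro libraries. The groups did not overlap, and the mean difference was 0.45. The log2 ratio of Tbx2 to Tbx3 was -1.48, -2.02 and -1.94 in the Prdm16 libraries and -3.48, -4.52 and -3.25 in the puro libraries. Here too the groups were apart, by 1.94 on average, so that Tbx2 counts were nearer to Tbx3 counts in the Prdm16 libraries. A two-sided exact permutation test gave p = 0.1 for each pair, the smallest value that 3 against 3 allows, and 0.1 when adjusted over the 2 pairs. No ratio was formed for Tbx4 and Tbx5, since both were at or near 0.

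The other T-box genes were mostly silent. Of 9 further family members 2 were tested: Mga, a large protein that joins a T-box to a MAX-binding domain, rose, and Tbx6, a paraxial mesoderm factor, fell. Mga had 190, 196 and 180 CPM in the Prdm16 libraries and 131, 118 and 108 CPM in the puro libraries, a log2 fold change of 0.67 ± 0.06 (SE; edgeR adjusted p = 2.58e-06). Tbx6 was read from 24, 13 and 10 counts in the Prdm16 and 22, 27 and 38 in the puro libraries. Its log2 fold change was -0.86 ± 0.31 (SE; edgeR adjusted p = 0.0285), and the call was lost with DESeq2 (adjusted p = 0.0626) and without Prdm16 replicate 2, Prdm16 replicate 3 or puro replicate 3 (adjusted p 0.0709, 0.118 and 0.112). The rest, T, Tbr1, Eomes, Tbx10, Tbx19, Tbx21 and Tbx22, had at most 11 counts over a group.

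Depot and beige identity genes, among which Tbx15 and Tbx1 are usually counted, fell more often than they rose. Of 24 listed genes, not counting the T-box members, 20 were tested: 13 fell, 5 rose and 2 were not called. Their median log2 fold change was -0.61, against -0.01 over all tested genes, of which 38.0% were called lower and 37.5% higher. The beige cell surface marker Tnfrsf9 fell to 0.757 ± 0.184 CPM in Prdm16 libraries, against 18.8 ± 0.96 CPM in puro libraries (SD, n = 3), and Sp100 had a log2 fold change of -2.36 ± 0.04. Hoxc8, a positional gene of caudal depots, was at 24.2 ± 1.05 CPM in Prdm16 and 75.6 ± 0.173 CPM in puro libraries (SD, n = 3), and the brown preadipocyte factor Ebf2 had a log2 fold change of -2.61 ± 0.05. Hoxa5, a positional gene, rose by 1.14 ± 0.04. Adipocyte markers moved beside this list: all 3 tested of 6, Fabp4 (2.26 ± 0.08), Cidec (5.20 ± 0.26) and Adipoq (3.05 ± 0.21), rose, and the list summed to 517 to 615 CPM in Prdm16 and 104 to 122 CPM in puro libraries. Most of that sum was Fabp4, at 511, 533 and 609 CPM in Prdm16 and 121, 121 and 104 CPM in puro libraries. The untested marker Plin1 had 9 counts over the Prdm16 and 10 over the puro group. Lep had 5 counts and Pck1 1 count over the Prdm16 group, and neither had a count in the puro group. The part of adipocytes in the changes of the depot and beige genes was not tested.

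Further genes of this list are named after their values were seen. The beige marker Tmem26 fell, from few reads, with a log2 fold change of -0.84 ± 0.22 and 52 counts over the Prdm16 and 95 over the puro group. The positional factors En1 (-2.38 ± 0.10), Hoxc9 (-1.48 ± 0.06) and Shox2 (-0.37 ± 0.07) fell, and Hoxc10 had -0.11 ± 0.06 and was not called (edgeR adjusted p = 0.154). With chromosome medians removed, Hoxc10 turned to 0.28 and was called higher (edgeR adjusted p = 0.00237), Shox2 had -0.17, and 7 genes of the list were called higher and 13 lower. The amino acid transporter Slc36a2, a brown fat marker, rose from a low level, with 90 counts over the Prdm16 group and 5 over the puro group. Other genes of the list went both ways. P2rx5 fell, at -1.89 ± 0.09, with 536 counts over the Prdm16 and 2026 over the puro group. Zic1 fell as well, at -0.52 ± 0.07, whereas Klhl13 rose by 0.95 ± 0.18. Cited1, a beige marker, was too low to be tested, with 26 counts over the Prdm16 and 24 over the puro group.

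**Figure D5:**
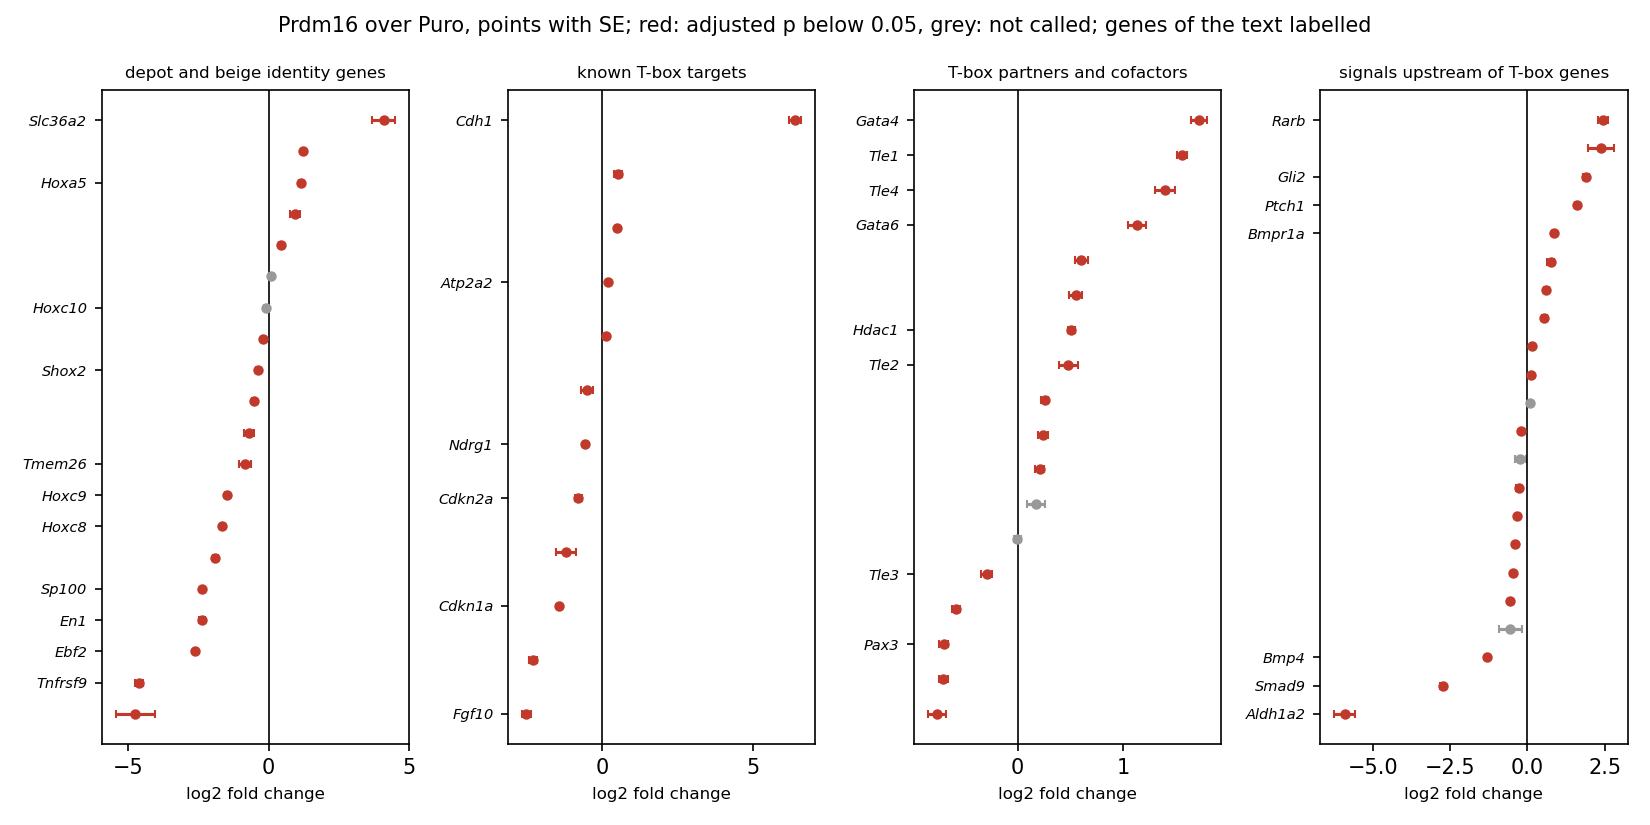
Each panel holds the tested genes of one list. The horizontal axis is the log2 fold change of Prdm16 over puro libraries, on its own scale, with bars for the SE. Genes run down the panel from the highest value. Those described in the text are labelled, except P2rx5, Zic1, Klhl13, Gli3 and Smo. Red genes had an adjusted p below 0.05 and grey genes did not. Depot and beige genes lie mostly below 0 (13 of 20 called lower), partners and cofactors mostly above it (11 of 18 called higher). Of all tested genes 38.0% were called lower and 37.5% higher.

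Genes known as targets of T-box factors in heart, limb or tumour cells went both ways, with 5 higher and 7 lower among 12 tested of 19. Their median log2 fold change was -0.54, against -0.01 over all tested genes, of which 37.5% were called higher and 38.0% lower. Fgf10, the limb and adipogenic growth factor that Tbx4, Tbx5 and Tbx1 activate in mouse embryos, fell to 1.82, 1.86 and 2.67 CPM in the Prdm16 libraries, against 13.7, 12.3 and 10.9 CPM in the puro libraries. No Prdm16 library came near a puro library, and the log2 fold change was -2.53 ± 0.14 (SE; edgeR adjusted p = 3.04e-08).

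The cell cycle inhibitor Cdkn1a, which TBX2 and TBX3 repress in human and mouse cells, fell to 37.7 ± 2.01 CPM in Prdm16 libraries, against 102 ± 7.37 CPM in puro libraries (SD, n = 3; log2 fold change -1.43 ± 0.06). E-cadherin, Cdh1, which TBX3 represses in human melanoma cells, rose to 703 counts over the Prdm16 group, against 8 over the puro group. Ndrg1, repressed by TBX2 in human breast cancer cells, had a log2 fold change of -0.57 ± 0.04 (-0.19 with chromosome medians removed). Cdkn2a, another inhibitor held back by Tbx2 and Tbx3 and named after its values were seen, fell, with 250 ± 32.3 CPM in Prdm16 and 434 ± 61.4 CPM in puro libraries (SD, n = 3). The cardiac targets Nppa, Gja5 and Nkx2-5 had at most 15 counts over a group. Epithelial markers moved beside Cdh1: of 6 mammary epithelial genes 3 were tested and rose (Krt18, Esrp1 and Epcam), the list summed to 19.7 to 21.2 CPM in Prdm16 and 0.143 to 0.268 CPM in puro libraries, and Esrp1 had no count in the puro group. Krt8, Krt14 and Krt5, defining keratins of that tissue, had at most 4 counts over a group. The part of such cells in the rise of Cdh1 was not tested. With chromosome medians removed, 3 targets and not 5 were called higher, and Atp2a2, the calcium pump of the sarcoplasmic reticulum, was among those that no longer passed (edgeR adjusted p = 0.749).

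Partners and cofactors of T-box proteins rose in 11 and fell in 5 of 18 tested genes, 2 were not called and 3 had no count. The median log2 fold change of the list was 0.25, against -0.01 over all tested genes, of which 37.5% were called higher and 38.0% lower. Tle1, a Groucho corepressor that T-box repressors such as Tbx15, Tbx18 and Tbx20 can recruit, had 110, 111 and 105 CPM in the Prdm16 libraries and 35.2, 36.5 and 38.5 CPM in the puro libraries. All Prdm16 libraries were above every puro library, with a log2 fold change of 1.56 ± 0.05 (SE; edgeR adjusted p = 1.09e-10). Gata4, which partners Tbx5 and Tbx20 in the heart, rose to 14.6 ± 0.547 CPM in Prdm16 libraries, against 4.40 ± 0.0584 CPM in puro libraries (SD, n = 3). The deacetylase Hdac1 rose by 0.51 ± 0.03. Pax3, a factor of muscle precursors, fell, with a log2 fold change of -0.70 ± 0.04. Among genes named after their values were seen, Tle4 rose by 1.40 ± 0.10, Gata6 by 1.13 ± 0.09 and Tle2 by 0.48 ± 0.09, and Tle3 fell, at -0.29 ± 0.05 (-0.18 with chromosome medians removed). Under that setting 13 of the list were called higher and 5 lower.

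Signals known to act upstream of T-box genes went both ways, with 10 higher, 9 lower and 3 not called among 22 tested of 25. Their median log2 fold change was -0.06. All tested genes had a median of -0.01, with 37.5% called higher and 38.0% lower. With chromosome medians removed, 7 were higher and 9 lower. BMP ligands induce Tbx2 and Tbx3 in mouse embryos. Here Bmp4 was at 32.5, 32.9 and 33.1 CPM in the Prdm16 libraries and 75.9, 81.9 and 83.4 CPM in the puro libraries, so the groups did not overlap (log2 fold change -1.29 ± 0.05; edgeR adjusted p = 4.75e-10). The BMP effector Smad9 fell to 2.69 ± 0.211 CPM in Prdm16 libraries, against 18.0 ± 0.305 CPM in puro libraries (SD, n = 3), whereas the receptor Bmpr1a rose by 0.86 ± 0.04 (0.37 with chromosome medians removed). Of the Hedgehog pathway, the receptor Ptch1 rose by 1.61 ± 0.07 and the transcription factor Gli2 by 1.90 ± 0.09. Of the same pathway, and named after their values were seen, Gli3 fell, at -0.33 ± 0.04, and Smo was called higher at 0.13 ± 0.04 but not with chromosome medians removed (edgeR adjusted p = 0.0816) or without Prdm16 replicate 1, puro replicate 1 or puro replicate 2 (edgeR adjusted p 0.0547, 0.0555 and 0.0727). Retinoic acid is another known regulator of Tbx1 and Tbx5. Its synthetic enzyme Aldh1a2 was named after its values were seen. This enzyme was read from 0, 2 and 2 counts in the Prdm16 and 86, 88 and 92 in the puro libraries. The retinoic acid receptor Rarb rose by 2.45 ± 0.15 (1.96 with chromosome medians removed).

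Genes next to the T-box members on the chromosome were looked at because reads of overlapping genes can be mixed when the counting strand is not stated. In the GRCm38 annotations 7 transcripts overlapped a member, among them the antisense gene Tbx3os1 at Tbx3 and D030062O11Rik at Tbx18. These were not in the table, and part of a member's count could be theirs. Tbx3os2, antisense by name, had no count. The 25 neighbours in the table, up to 2 on each side of a member, held 14 tested genes, of which 9 were lower, 1 higher and 4 not called. Among all tested genes 75.6% were called, 38.0% as lower and 37.5% as higher. The gene that rose was Nt5e, next to Tbx18, which encodes the surface nucleotidase CD73. It had 115, 123 and 126 CPM in the Prdm16 libraries and 1.93, 1.49 and 1.25 CPM in the puro libraries, while Snx14 beyond it had a log2 fold change of -0.04 ± 0.04 and was not called (edgeR adjusted p = 0.404).

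On the other side of Tbx18, Cep162 was called lower at -0.19 ± 0.06, but not with chromosome medians removed (edgeR adjusted p = 0.193). Beside Tbx20, Herpud2 (-0.59 ± 0.04) and Sept7 (-0.34 ± 0.04) fell by less than Tbx20 did. Wars2 beside Tbx15 fell, at -0.64 ± 0.07. Wdr3 was called lower at -0.12 ± 0.04, but not with no filter, with DESeq2 or without Prdm16 replicate 3 (adjusted p 0.0606, 0.0516 and 0.0625), and it turned to 0.08 with chromosome medians removed. Bcas3, on the far side of Tbx2 from Tbx4, fell, at -0.70 ± 0.05, where Tbx2 itself rose, and Brip1 (0.00 ± 0.06) on the Tbx4 side was not called (edgeR adjusted p = 0.981). Rbm19, next to Tbx5 in the cluster with Tbx3, had 0.02 ± 0.04 and was not called either (edgeR adjusted p = 0.73), although with chromosome medians removed it was lower at -0.16 (edgeR adjusted p = 0.00343). The tested members had larger changes than their tested neighbours except beside Tbx18, where Nt5e changed by 6.29 ± 0.09.

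The genes most like each member over the 6 libraries were those with the smallest root-mean-square difference of centred log2 CPM, among 11236 genes with a mean of at least 5 CPM in a group. For Tbx15 these were C1qtnf6 (0.0166) and Dap (0.0198), for Tbx18 Samd9l (0.0344) and Runx1 (0.0366), for Tbx20 Smpd3 (0.039) and Gng2 (0.0456), and for Tbx3 Tcea3 (0.0611) and Apbb3 (0.067). The points of this measure share the 2 groups, so it mostly finds genes with a like fold change. With chromosome medians removed, C1qtnf6 and Dap each had a log2 fold change of -0.59, against -0.78 for Tbx15. Runx1, a transcription factor of blood and mesenchyme, had a log2 fold change of -1.37 ± 0.06 beside that of Tbx18.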

How the data were processed

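Polyadenylated RNA of 6 libraries was sequenced, 3 with a Prdm16 and 3 with a puro retrovirus. Trizol and PureLink extraction and Illumina TruSeq RNA preparation are recorded per the labels' protocols. The submitters' processing notes name STAR, featureCounts, Subread and the mouse build mm9, with no role or order; their versions, the strand setting and how shared reads were treated are not stated there. The authors deposited raw counts, 1 whole number for each symbol and library, without normalization.

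Genes were kept by filterByExpr of edgeR 4.0.16 in R 4.3.3 with the group as its argument, which left 13805 of 24197 genes and removed 0.0297% of the counts. After TMM scaling, the 6 libraries entered a quasi-likelihood test (two-sided), with Benjamini-Hochberg adjustment over all tested genes. The SE was the size of the log2 fold change divided by the root of F. The common biological coefficient of variation was 4.78%. Chi-squares between replicates, 2.08 to 8.85 a gene where pure sampling gives 1, gave no sign of a library deposited again, which does not show that the libraries came from separate cultures. The fits were tested on simulated data. Ratios used counts plus 0.5. Chromosomes, neighbours and promoters were matched by symbol from RefSeq GRCm38.p6, and lengths from GENCODE M21.

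The members and gene lists were chosen with earlier results of these data known, so no list is independent support and no list was tested as a set. Named genes were the members, Prdm16, up to 5 genes of each list with the smallest p, any defining gene at or near 0, the neighbours, and 2 genes most like each member; further genes of the marker lists were named after their values were seen, and some list genes are counted but not reported here by name. The alternatives tried were scaling by RLE or upper quartile, no filter, a filter of 1 CPM in 3 libraries, DESeq2 1.42.0, limma-voom (limma 3.58.1), a replicate block, Prdm16 left out of the counts, and each library left out. Removing chromosome medians and using lengths of the longest coding transcript were chosen after seeing the data.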

Additional observations from a re-analysis of the deposited data

How the results depend on the processing

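The calls and directions of Tbx20, Tbx18, Tbx15, Tbx3 and Tbx2 held under all 15 alternatives, scalings included. The log2 fold change ranged from -2.10 to -1.94 for Tbx20, -1.46 to -1.32 for Tbx18, -0.998 to -0.782 for Tbx15, -0.82 to -0.55 for Tbx3 and 0.92 to 1.59 for Tbx2, whose low counts limit it most (highest adjusted p 0.0126). The fall of Tbx6 was the weak call among the other family members: 0 and not 1 were called lower with a filter of 1 CPM in 3 libraries, which removed Tbx6, and with DESeq2, and 0 to 1 with 1 library left out; the cause was not tested for the last 2. The median log2 fold changes of the chromosomes ran from -0.41 on 18 and -0.38 on 15 to 0.39 on 19 and 0.49 on 14. With chromosome medians removed, 3 known targets were called higher, against 5. The counts of the other lists stayed within 1.5 times. Among named genes, the changes of Gata4 (1.24), Tle4 (1.01), Pdgfrb (-1.09) and Hoxc9 (-1.10) became smaller. Those of Ly6a (1.77), Bmp4 (-1.78), Ebf2 (-3.09) and Gata6 (1.54) became larger. In raw counts, the share of a member differed between groups by 3.37 percentage points for Tbx3, 8.5 for Tbx15, -2.73 for Tbx18 and -11.4 for Tbx20, and with the longest coding transcript by -6.78 for Tbx20. Deviations from the group mean had r of -0.164, 0.0986 and -0.0674 between same-numbered libraries, and -0.19 to 0.25 between the others. Such deviations, centred over 3 libraries a group, cannot decide whether the numbers mark pairs. A replicate block gave 10089 called genes against 10430 without it and changed no call of a tested member. The paired ratio differences with the replicate block were 0.45 for Tbx15/Tbx18 and 1.94 for Tbx2/Tbx3, where an exact sign-flip test cannot go below 0.25.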
